A study of Homo sapiens with 8 samples.

Results

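This is a description of how the difference between WT and Pcif1-KO cells moved when PCF11 was targeted with siRNA. The cells were HEK293T, a human embryonic kidney line, and 4 nuclear RNA libraries are involved. They came from Pcif1-KO cells with siPCF11, WT cells with siPCF11, Pcif1-KO cells with siScram (a scrambled control siRNA) and WT cells with siScram, 1 library each. All had been given 5 pmol of siRNA and were harvested 48 h later, newly made RNA carried the uridine analogue s4U, and the libraries were read from the 3′ ends of mRNAs. The labels name no clone of the knockout line, so the loss of PCIF1 and other differences between the lines cannot be told apart. The other 4 libraries of the series, Pcif1-KO cells with EGFP, PCIF1-CD (in 2 libraries) or PCIF1-WT, were not used here.

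The authors' deposited tables give each gene's log2 ratio of WT over Pcif1-KO under either siRNA, so a positive ratio is higher in WT. Genes were joined by Ensembl ID, and the siScram ratio was subtracted from the siPCF11 ratio. This difference is called the change. A positive change means that WT gained on Pcif1-KO when PCF11 was targeted, whichever line moved. It is the genotype by siRNA interaction, which also equals the siPCF11 effect in WT minus the siPCF11 effect in Pcif1-KO cells. Of 8801 listed genes, 7591 (86.3%) had a ratio with both siRNAs. A further 908 genes (10.3%) were listed with siPCF11 only and 302 (3.43%) with siScram only. With 1 library per group no test is possible, the spread between cultures is not known, and every value below describes these 4 libraries.

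PCIF1 methylates the adenosine that follows the mRNA cap and so makes m6Am. The mark can only be placed on transcripts whose first base is an A. PCF11 is a subunit of cleavage factor II, which binds the tail of RNA polymerase II and takes part both in cutting the transcript before poly(A) addition and in ending transcription. Cleavage within a gene rather than at its end leaves a shortened transcript. The authors' tables sort the genes into long and short ones and, within either, by whether the transcript carries m6Am.

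The start regions of 8 genes are shown because m6Am can only be placed on transcripts whose first base is an A. They are the genes with the highest and the lowest change of each class among genes for which the RefSeq table lists 1 start. Each line holds 30 bases of RefSeq on GRCh38.p14 in the direction of transcription, and the capital marks the annotated first base.
CELSR3 (long m6Am, highest; chr3:48662877-48662906, minus strand): tcggggcggccgggagccatGttggagcgg
CLTC (long m6Am, lowest; chr17:59619875-59619904, plus strand): gggatccttccgctgggctcAgccgtttcc
TBC1D10A (long non-m6Am, highest; chr22:30326932-30326961, minus strand): gcgccgcgcgtgggcggggcGtcggcggca
ZNF33B (long non-m6Am, lowest; chr10:42638561-42638590, minus strand): gtttctgcgtttccgcctttCcttttgttt
MXD4 (short m6Am, highest; chr4:2262100-2262129, minus strand): tgaggcggagggtggcggccGagcgccgga
BCAS2 (short m6Am, lowest; chr1:114581606-114581635, minus strand): tttacgcagacgcagaaaacGcaggcaaac
FBXW5 (short non-m6Am, highest; chr9:136944729-136944758, minus strand): tacccgcgcgctctgccttcCtcggccatc
DEPP1 (short non-m6Am, lowest; chr10:44978800-44978829, minus strand): cttgcctgcgaaggttcttcAcactgctca
The annotated start was an A in CLTC and DEPP1 only, although CELSR3, MXD4 and BCAS2 are also in the m6Am class. Over the 5203 listed genes with 1 annotated start, that base was an A in 50.6% of 2640 m6Am genes and in 38.7% of 2563 non-m6Am genes, against 44.3% of 22114 RefSeq genes with 1 start. The annotated start therefore tracks the authors' m6Am class only loosely. It did not separate the genes by change: an A stood at the start of 46.3% of 467 genes with a change of 0.5 or more and of 46.7% of 452 genes with a change of -0.5 or less. Genes starting with A had a median change of -0.0054 (n = 2003) and those starting with G one of 0.014 (n = 1961).

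The change was centred close to 0. Its median over the 7591 genes was 0.0072, the middle 50% of genes lay between -0.25 and 0.28, and single genes reached from -1.80 to 1.93. A change of 0.5 (a 1.41-fold shift of the ratio) or more was found for 825 genes (10.9%) and one of -0.5 or less for 752 (9.91%). A change of 1 (a 2-fold shift) or more was found for 56 genes (0.738%) and one of -1 or less for 36 (0.474%). With the median of its 10 Mb neighbours subtracted from each gene, the numbers were 46 at 1 or more and 48 at -1 or less. F2R, the thrombin receptor, lay just inside this limit at 1.0004, and the iron-sulphur assembly factor MMS19 just outside it, its change being 0.996. At the lower limit the acyltransferase gene LPGAT1 was just inside at -1.01 and the BH3-only apoptosis gene BCL2L11 just outside at -0.99. Changes above 0 made up 50.8% of genes and those below 0 made up 49.2%.

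The genotype ratios of a gene were related but far from identical under the siRNAs. Over genes their Pearson correlation was 0.43 and their Spearman correlation 0.36 (n = 7591 genes; the ratios rest on different libraries but on the same lines and gene models). The sign was the same for 4685 genes (61.7%). The spread over genes was SD 0.40 with siPCF11 and SD 0.35 with siScram, and the change itself had an SD of 0.40, so it was as wide as either ratio.

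**Figure D1:**
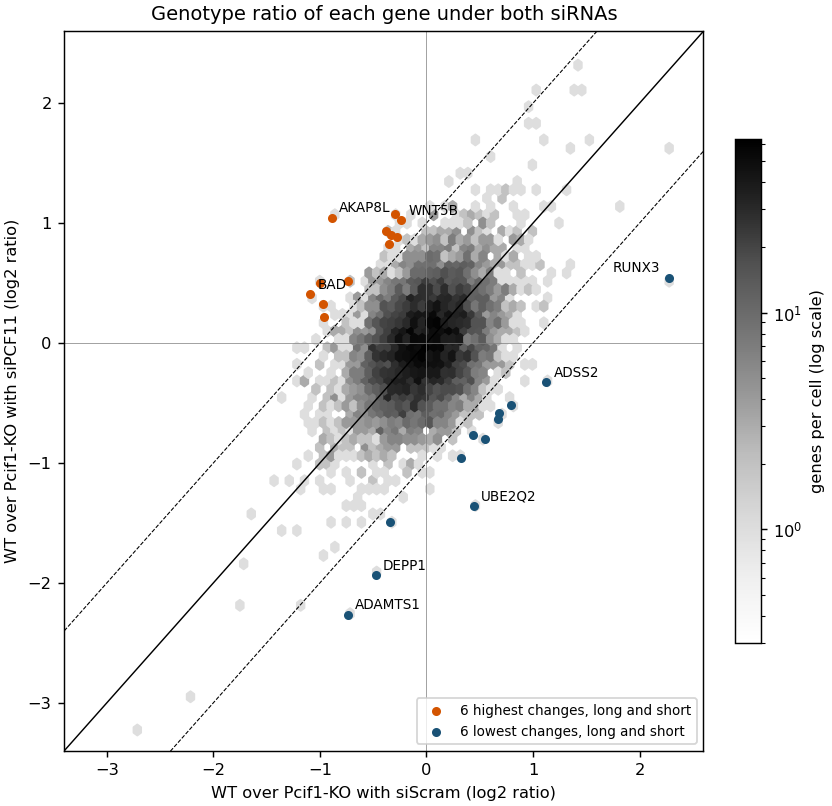
Log2 ratio of WT over Pcif1-KO with siPCF11 (vertical) and with siScram (horizontal) for 7591 genes, shaded by the number of genes per cell on a log scale. The solid line marks no change and the dashed lines a change of 1 and -1; orange points are the 6 highest and blue points the 6 lowest changes of each length class, with AKAP8L farthest above the line and UBE2Q2 farthest below.

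Some large genotype differences were present under both siRNAs. A log2 ratio past 1 in the same direction with both siRNAs was found for 28 genes, 14 higher in WT and 14 higher in Pcif1-KO. Of these 28, 17 had a change within 0.5 of 0, a smaller share than among all genes. Over all genes 10.9% had a change of 0.5 or more and 9.91% one of -0.5 or less. The following genes were chosen after their values were seen. In the authors' deposited tables the lineage transcription factor GATA3 had ratios of -1.46 with siPCF11 and -1.63 with siScram, and GATA6 had -1.14 with siPCF11 and -1.26 with siScram. ISL1, a LIM-homeodomain factor, had -1.12 with siPCF11 and -1.14 with siScram in the authors' deposited tables. RPP25, a subunit of ribonuclease P, was at 1.67 with siPCF11 and 1.51 with siScram in the authors' deposited tables. Other such genes moved further from 0: the authors' deposited tables give the neurofilament gene NEFM -3.23 with siPCF11 and -2.71 with siScram, and the co-regulator CITED1 -2.98 with siPCF11 and -2.23 with siScram. The BEX family gene BEX1 was at -2.15 with siPCF11 and -1.17 with siScram in the authors' deposited tables, a change of -0.98. No gene was past 1 in opposite directions, and 15 were past 0.5 in opposite directions.

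The siRNA's own target gives no check of the knockdown, since the WT and Pcif1-KO libraries of a ratio were treated alike. PCF11 (ENSG00000165494.11, GRCh38 chromosome 11, 83157131 to 83187451, short m6Am) had ratios of -0.45 with siPCF11 and -0.44 with siScram in the authors' deposited tables, a change of -0.0041. Its genotype difference was thus nearly the same under both siRNAs. PCIF1 was not analysed here. DIS3, the nuclease subunit of the nuclear exosome (ENSG00000083520.14, chromosome 13, 72752169 to 72781900, long m6Am), had ratios of -0.97 with siPCF11 and -0.48 with siScram in the authors' deposited tables, a change of -0.49. Relative to the other genes of its 10 Mb window its change was -0.13. Among 21 markers of other lineages 1 was listed, the myelin gene MBP, at -0.79 with siPCF11 and -0.19 with siScram in the authors' deposited tables. The tables hold ratios and no levels, so the cell type itself could not be checked.

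Among long genes the highest change was that of AKAP8L (ENSG00000011243.17, chromosome 19, 15380050 to 15418988), a nuclear relative of the kinase-anchoring protein AKAP8. Its ratio was 1.04 with siPCF11 and -0.89 with siScram in the authors' deposited tables, a change of 1.93, which is a 3.81-fold shift. AKAP8L was higher in WT than in Pcif1-KO cells with siPCF11 and lower with siScram. The Rab GTPase-activating gene TBC1D10A on chromosome 22 had 1.07 with siPCF11 and -0.29 with siScram in the authors' deposited tables, a change of 1.37. The scaffold gene DLGAP4 on chromosome 20 was at 0.93 with siPCF11 and -0.38 with siScram in the authors' deposited tables, a change of 1.31. HIRA, a chaperone of histone H3.3 on chromosome 22, was at 0.83 with siPCF11 and -0.35 with siScram in the authors' deposited tables, a change of 1.18. OSBPL1A, of the oxysterol-binding family, and PITRM1, a mitochondrial peptidase, completed the 6 highest, at 1.18 and 1.16. In OSBPL1A the siScram ratio was the one farther from 0: the authors' deposited tables give 0.21 with siPCF11 and -0.96 with siScram.

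The lowest change of all was that of UBE2Q2 (ENSG00000140367.11, chromosome 15, 75843447 to 75901078), a ubiquitin-conjugating enzyme gene. It was at -1.36 with siPCF11 and 0.44 with siScram in the authors' deposited tables, a change of -1.80. UBE2Q2 has near-identical pseudogene copies and ZNF33B has the close paralog ZNF33A, and reads shared with such copies make both values uncertain. RUNX3, a Runt-family transcription factor, was higher in WT under both siRNAs, at 0.55 with siPCF11 and 2.28 with siScram in the authors' deposited tables, so its change of -1.73 is a smaller difference rather than a turned one. ADSS2, which makes adenylosuccinate in AMP synthesis, had -0.33 with siPCF11 and 1.13 with siScram in the authors' deposited tables, a change of -1.46. The clathrin heavy chain gene CLTC had -0.80 with siPCF11 and 0.55 with siScram in the authors' deposited tables, a change of -1.35. ZNF33B and CHUK, which encodes the kinase IKK-alpha, both had a change of -1.31. CLTC and CHUK are m6Am genes, and the other 4 are non-m6Am genes. Of all 4387 long genes with both ratios 1983 are m6Am genes.

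Of the short genes, BAD (ENSG00000002330.13, chromosome 11, 64269828 to 64284704), a pro-apoptotic BCL2 relative, had 0.41 with siPCF11 and -1.09 with siScram in the authors' deposited tables, a change of 1.501. MXD4, a repressor that pairs with MAX, was at 0.50 with siPCF11 and -1.003 with siScram in the authors' deposited tables, also a change of 1.501. The surface glycoprotein gene CD83 had a change of 1.29, the ligand gene WNT5B one of 1.26, the mevalonate pathway enzyme gene MVD one of 1.25 and R3HDM4 one of 1.24. These 6 short genes were higher in WT with siPCF11 and lower in WT with siScram. Of them 5, all but CD83, are m6Am genes, as are 2025 of all 3204 short genes with both ratios.

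At the lower end of the short genes, ADAMTS1 (ENSG00000154734.14, chromosome 21, 26835755 to 26845409), a secreted metalloprotease gene, was at -2.26 with siPCF11 and -0.74 with siScram in the authors' deposited tables, a change of -1.52. DEPP1, a FOXO target, was at -1.93 with siPCF11 and -0.48 with siScram in the authors' deposited tables, a change of -1.46. In both genes a difference already present with siScram was wider with siPCF11. METTL18, a histidine methyltransferase gene, had a change of -1.29, the spliceosome gene BCAS2 one of -1.27 and the zinc finger gene ZNF416 one of -1.21. These last 3 were lower in WT with siPCF11 and higher in WT with siScram.

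**Figure D2:**
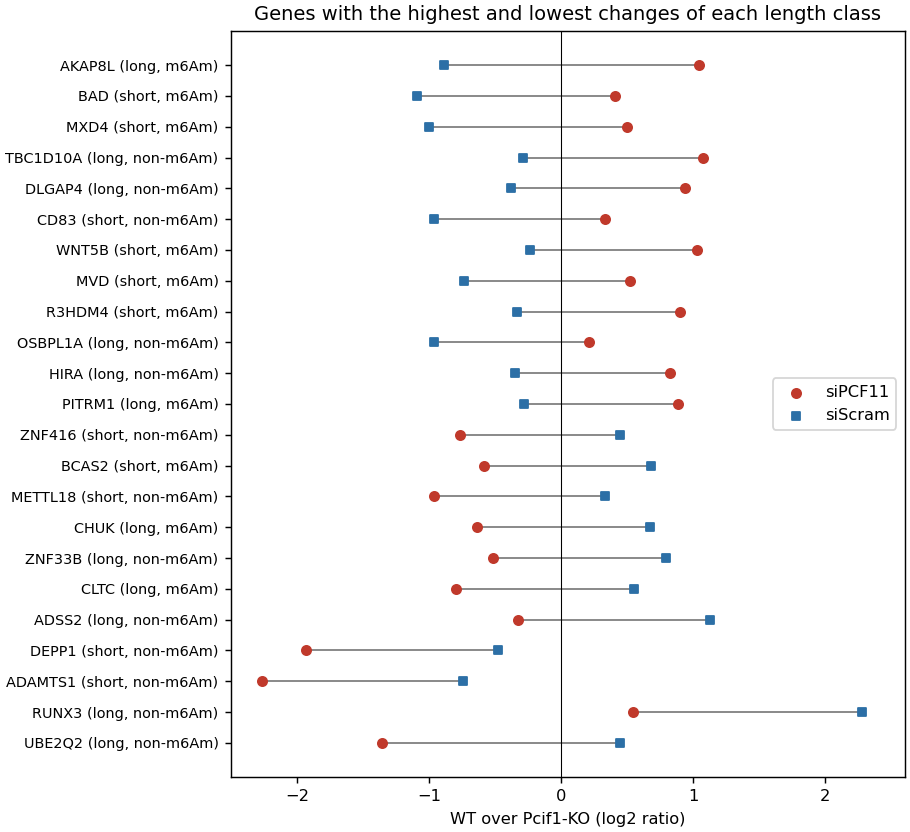
Log2 ratio of WT over Pcif1-KO with siPCF11 (red circles) and with siScram (blue squares) for genes among the 6 highest and 6 lowest changes of each length class (1 short gene not drawn), each gene's points joined by a line; 1 library per group, so there are no error bars. In most rows the points lie on opposite sides of 0, while those of RUNX3, ADAMTS1 and DEPP1 stay on 1 side.

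By class, medians were small beside the spread over genes. The 4387 long genes had a median change of -0.012 (middle 50% of genes -0.27 to 0.25, 48.8% above 0) and the 3204 short genes one of 0.032 (-0.22 to 0.30, 53.5% above 0). Long minus short was -0.044. A change of 0.5 or more was found for 425 long and 400 short genes, and one of -0.5 or less for 482 long and 270 short genes. As shares of the classes these are 9.69% of long and 12.5% of short genes upward, and 10.99% of long and 8.43% of short genes downward, against the 10.9% and 9.91% of all genes.

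Short m6Am genes stood highest of the 4 classes, with a median change of 0.045 (n = 2025, 54.9% above 0), which was -0.0052 when centred on the 10 Mb window and -0.0036 when centred on bins of local gene density. Their median ratio was 0.037 with siPCF11 and -0.026 with siScram. A change of 0.5 or more was found for 270 of them (13.3%, against 10.9% of all genes). One of -0.5 or less was found for 149 (7.36%, against 9.91% of all genes). Long non-m6Am genes stood lowest at -0.027 (n = 2404, 47.5% above 0), or 0.0033 when centred on those density bins, with median ratios of -0.058 with siPCF11 and -0.0069 with siScram. Of these genes 208 (8.65%) had a change of 0.5 or more and 280 (11.6%) one of -0.5 or less. Long m6Am genes were at 0.0047 (n = 1983) and short non-m6Am genes at 0.0087 (n = 1179). The m6Am minus non-m6Am difference was 0.032 in long and 0.036 in short genes. Each of these differences is small beside the SD of the change over genes, 0.40.

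Gene surroundings differed between the classes as well. Local gene density, the number of RefSeq protein-coding genes in the 1 Mb centred on a gene, had a median of 19 for short m6Am, 17 for short non-m6Am, 12 for long m6Am and 9 for long non-m6Am genes. With the median change of its density bin subtracted from each gene, long minus short was 0.014, the opposite sign, and m6Am minus non-m6Am was 0.0069 in long and 0.017 in short genes. Long genes were above short genes in 6 of 10 density bins, in 4 of 10 bins of RefSeq gene span and in 1 of 10 bins of promoter GC content. The length difference thus did not hold among genes of like density but did among genes of like promoter GC content. Span bins hold mostly 1 length class, with 6 long and 748 short genes in the shortest and 706 long and 48 short in the longest. Their count therefore says little about the length difference. Among long genes, m6Am genes were above non-m6Am genes in 7 density bins, 7 span bins and 8 GC bins, and among short genes in 6 density bins, 8 span bins and 9 GC bins.

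**Figure D3:**
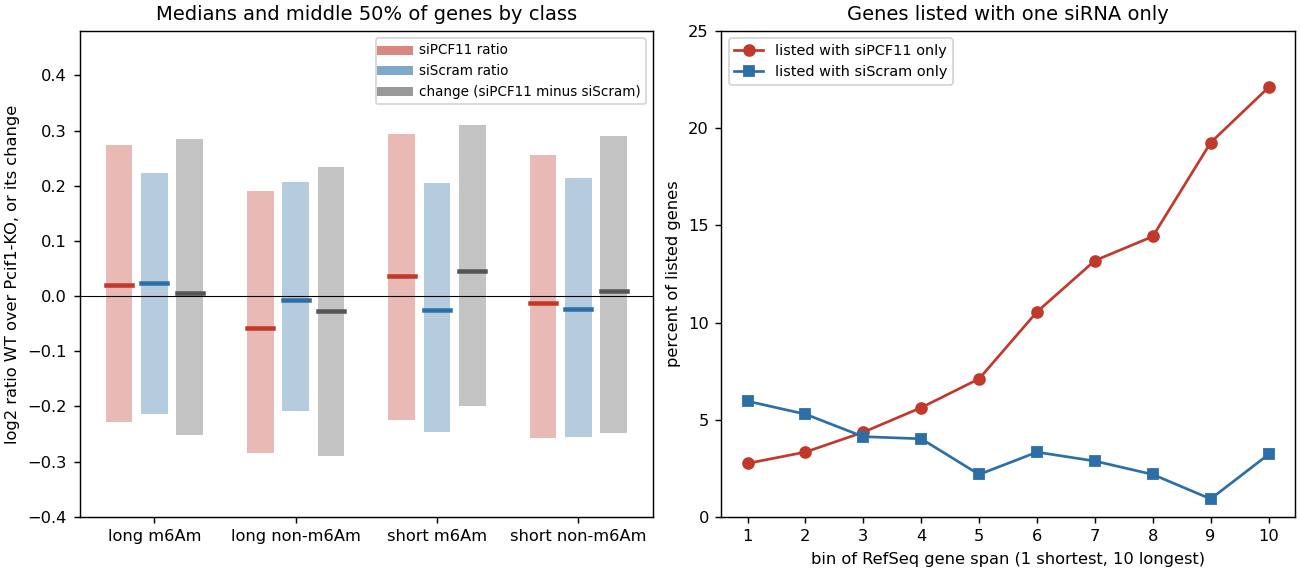
Left, medians (lines) and middle 50% of genes (boxes) of the siPCF11 ratio, the siScram ratio and the change, in log2, for the 4 authors' classes. Right, percent of listed genes with a ratio for siPCF11 only (red) or siScram only (blue) in 10 bins of RefSeq gene span, where the siPCF11-only share climbs from 2.75% in the shortest to 22.1% in the longest bin.

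The change followed local gene density more closely than length or m6Am class. In the sparsest bin, with 1 to 5 genes, the median change was -0.10 (n = 1065, 36.9% above 0). Its median ratio was -0.11 with siPCF11 and 0.0023 with siScram. In the densest, with 36 to 76 genes, the median change was 0.196 (n = 702, 69.5% above 0), and the median ratio was 0.11 with siPCF11 and -0.091 with siScram. Between them the medians were -0.089, -0.078, -0.069, 0.0023, -0.0065, 0.078, 0.093 and 0.126 from sparse to dense. The Spearman correlation over 7532 genes was 0.24 between density and the change, 0.17 between density and the siPCF11 ratio and -0.081 between density and the siScram ratio. It was 0.083 between promoter GC content and the change and -0.067 between gene span and the change. Neighbouring genes share both their surroundings and any regional shift, so these correlations are descriptions of the libraries.

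Of the 825 genes with a change of 0.5 or more the median density was 19, of the 752 with -0.5 or less it was 10, and of all genes it was 13. The upward genes had a median span of 23.4 kb and the downward genes one of 32.4 kb, against 28.0 kb for all. Of the upward genes 59.0% were m6Am and 51.5% long, of the downward genes 46.7% were m6Am and 64.1% long, and of all genes 52.8% were m6Am and 57.8% long.

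The same order appeared between chromosomes. Chromosome 19, the most gene-dense, had the highest median change at 0.192 (n = 545, 68.1% above 0), with median ratios of 0.122 with siPCF11 and -0.057 with siScram. It held 13.1% of the genes with a change of 0.5 or more, 4.12% of those with -0.5 or less and 7.18% of all genes. Chromosomes 22, 16 and 17 followed at 0.126, 0.110 and 0.095. Chromosome 6 was lowest at -0.129 (n = 337, 36.2% above 0), with -0.114 with siPCF11 and 0.0088 with siScram, and chromosome 4 was next at -0.113. Chromosome 6 held 1.82% of the upward and 5.98% of the downward genes, against 4.44% of all. Over 23 chromosomes median density and median change had a Spearman correlation of 0.84 and a Pearson correlation of 0.86.

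Chromosomes 11 and 20 stood farthest from 0 as a whole under both siRNAs. The median ratio of chromosome 11 was -0.286 with siPCF11 and -0.290 with siScram, and its median change 0.034. That of chromosome 20 was 0.378 with siPCF11 and 0.307 with siScram, and its median change 0.084. Smaller shifts of this kind were seen for chromosome 21, at 0.157 with siPCF11 and 0.177 with siScram. Chromosome X was at -0.125 with siPCF11 and -0.112 with siScram.

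**Figure D4:**
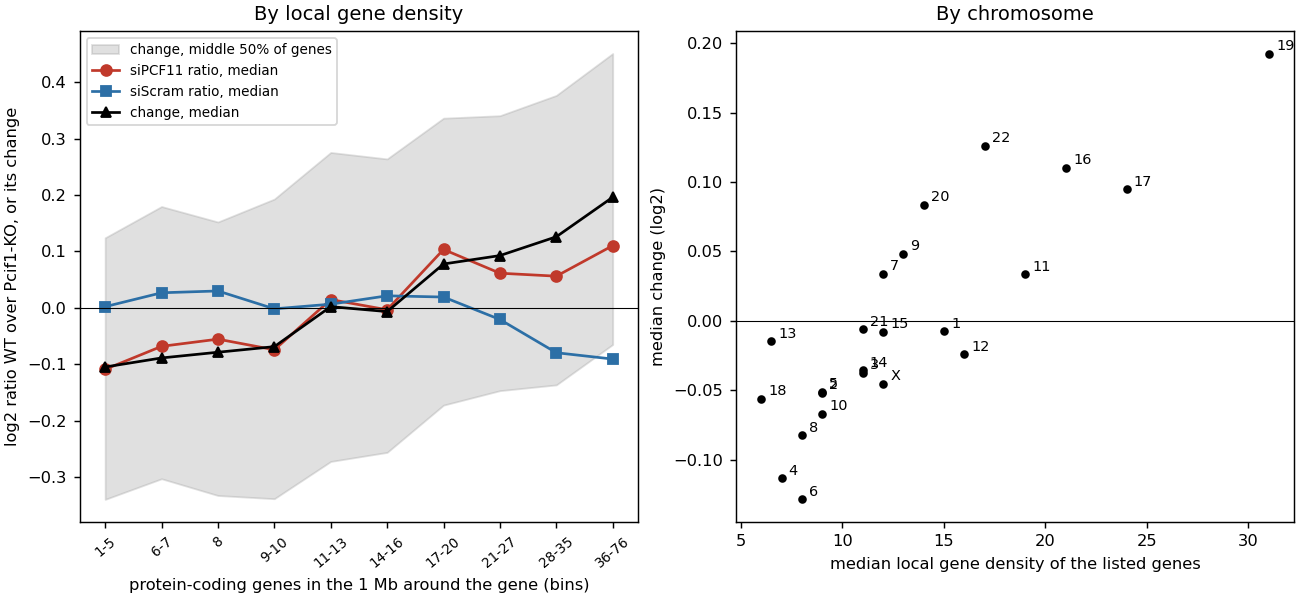
Left, median siPCF11 ratio, siScram ratio and change (log2) in bins of local gene density, with the middle 50% of genes of the change shaded; the median change lies between -0.10 in the sparsest and 0.196 in the densest bin. Right, median change of each chromosome (log2) against the median density of its listed genes, with chromosome 19 highest and chromosome 6 lowest.

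On a finer scale, 185 windows of 10 Mb held at least 15 genes each and had median changes between -0.38 and 0.36. In 11 windows the median was 0.2 or more and in 14 it was -0.2 or less. Over all genes 50.8% had a change above 0. The windows named here and below were chosen for a high or low median change, so their lopsided counts above 0 follow in part from that choice. The highest was 130 to 140 Mb on chromosome 9, where 55 of 68 genes were above 0 and the median ratio was 0.18 with siPCF11 and -0.15 with siScram. It holds FBXW5, an F-box substrate receptor of ubiquitin ligases, at 1.01 with siPCF11 and -0.21 with siScram, and the signalling adaptor TRAF2 at 0.89 with siPCF11 and 0.02 with siScram in the authors' deposited tables. The first 10 Mb of chromosome 19 had a median change of 0.297 with 98 of 128 genes above 0, and include R3HDM4, the ubiquitin-conjugating enzyme gene CDC34 (0.72 with siPCF11 and -0.17 with siScram in the authors' deposited tables) and MBD3, a subunit of the NuRD complex (0.91 with siPCF11 and 0.05 with siScram in the authors' deposited tables).

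The lowest window was 70 to 80 Mb on chromosome 13, with 4 of 18 genes above 0 and a median change of -0.38. Its median ratio was -0.58 with siPCF11 and -0.15 with siScram. Beside DIS3 it holds the Aurora A activator BORA at -0.99 with siPCF11 and -0.22 with siScram, and TBC1D4, a Rab GTPase-activating protein, at -0.89 with siPCF11 and -0.13 with siScram in the authors' deposited tables. RBM26 was at -0.76 with siPCF11 and -0.07 with siScram, and the transcription factor KLF5 at -0.86 with siPCF11 and -0.28 with siScram in the authors' deposited tables. In the window from 20 to 30 Mb of chromosome 12 none of 15 genes was above 0 (against 50.8% of all genes), and the median change was -0.29. MED21, a Mediator subunit, was lowest there, with -0.58 with siPCF11 and 0.36 with siScram in the authors' deposited tables, a change of -0.94. The smallest change in that window was that of the lactate dehydrogenase gene LDHB, at -0.11.

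Genes that were listed with only 1 siRNA differed in length. With siPCF11 only, 763 of 5279 long genes were listed (14.5%) and 145 of 3522 short genes (4.12%). By m6Am class the shares were 4.56% of m6Am and 15.8% of non-m6Am genes. Long non-m6Am genes were highest at 19.6% (612 of 3115), against 6.98% of long m6Am, 7.21% of short non-m6Am and 2.11% of short m6Am genes. With siScram only, the order of length was turned round: 2.44% of long and 4.91% of short genes were listed, with short non-m6Am genes highest at 7.79% and long m6Am genes lowest at 1.39%. The median RefSeq span was 63.1 kb for siPCF11-only genes and 18.0 kb for siScram-only genes, against 28.0 kb for genes with both. Which rule decided whether a gene was listed is not given in the sources used here, so a listing is not a measure of whether a gene was transcribed, and genotype and siRNA effects on it cannot be told apart.

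The siPCF11-only share was larger in each longer span bin, from 2.75% in the shortest (0.389 to 5.28 kb) to 22.1% in the longest (140 to 1698 kb). It was lower for m6Am than for non-m6Am genes in each of these 10 bins, at 0.559% of m6Am and 6.23% of non-m6Am genes in the shortest and 14.5% of m6Am and 24.9% of non-m6Am genes in the longest. The siScram-only share was 5.95% in the shortest, 0.917% in the next to longest and 3.21% in the longest bin. Gene density ran alongside: the siPCF11-only share was 16.5% where 1 to 5 protein-coding genes lay in the surrounding 1 Mb and 3.47% where 36 to 76 did, while the siScram-only share was 2.36% in the sparsest and 6.30% in the densest of these bins. Among long genes alone the siPCF11-only share was 19.7% in the sparsest and 5.58% in the densest bin.

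Ratios of genes listed once were mostly moderate. With siPCF11 only they ran from -1.09 to 1.22 with a median of -0.040, and 102 of 908 were past 0.5 in either direction. With siScram only they ran from -1.22 to 0.80 with a median of -0.083, and 38 of 302 were past 0.5. The authors' deposited tables give the interferon-induced ubiquitin-like gene ISG15 1.22 and the calcium-binding S100A11 -0.81 with siPCF11, the extremes of short genes. Of long genes with siPCF11 only, the neddylation gene DCUN1D2 was highest at 0.93 and the actin-bundling LCP1 lowest at -1.09 in the authors' deposited tables. With siScram only, the bHLH factor ATOH8 had -1.22, the mitochondrial carrier UCP2 -1.02 and the muscle co-activator MAMSTR 0.80 in the authors' deposited tables.

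Several repair genes were listed with siPCF11 only. Of 28 listed genes of homologous recombination, the Fanconi pathway and its checkpoints, 7 (25%) had a ratio with siPCF11 only, against 10.3% of all genes. They are the DNA end-processing genes MRE11 and RAD50 at 0.37 and 0.43, the helicase gene BRIP1 at 0.54, the ubiquitin ligase gene FANCL at 0.20, the checkpoint kinase genes ATM at -0.32 and ATR at -0.07, and the recombination gene XRCC2 at -0.04 in the authors' deposited tables. All but XRCC2 are long non-m6Am genes, a class in which 19.6% of genes were listed with siPCF11 only. The nuclease XRN2, which degrades the RNA behind a cleavage site, was also listed with siPCF11 only, at -0.42 in the authors' deposited tables. Of 14 listed genes of the Integrator complex, INTS4 and INTS1 were listed with siScram only, at -0.55 and -0.29 in the authors' deposited tables. INTS9 was listed with siPCF11 only, at -0.21. Of all listed genes 3.43% were listed with siScram only and 10.3% with siPCF11 only.

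PCF11 belongs to the machinery of 3′ end formation, which was taken first. Of 20 cleavage and polyadenylation genes with both ratios, 13 had a change below 0, against 49.2% of all genes. A change of -0.5 or less was found for 5 (25%, against 9.91% of all genes) and one of 0.5 or more for 0 (against 10.9%). The list's median change was -0.131 (middle 50% -0.53 to 0.08), with median ratios of -0.054 with siPCF11 and 0.054 with siScram. CSTF1, CSTF2 and CSTF3, which encode the 3 subunits of the cleavage stimulation factor, were among the 5. CSTF3 had -0.95 with siPCF11 and 0.08 with siScram in the authors' deposited tables, a change of -1.02. CSTF2 had -1.01 with siPCF11 and -0.14 with siScram in the authors' deposited tables, a change of -0.87. CSTF1, on chromosome 20, was at 0.18 with siPCF11 and 1.09 with siScram in the authors' deposited tables, a change of -0.91. The paralog CSTF2T went the other way, at 0.57 with siPCF11 and 0.30 with siScram in the authors' deposited tables.

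The remaining members past -0.5 were PAPOLA, the canonical poly(A) polymerase, and CLP1, PCF11's partner in cleavage factor II. PAPOLA was at -0.81 with siPCF11 and 0.03 with siScram in the authors' deposited tables, a change of -0.85. CLP1 had -0.67 with siPCF11 and -0.01 with siScram in the authors' deposited tables, a change of -0.66, while PCF11 itself was at -0.0041. The cleavage factor I genes CPSF6 and NUDT21 had changes of -0.48 and -0.41. WDR33, which reads the poly(A) signal, was nearest the list median at -0.17, the endonuclease gene CPSF3 had 0.22, and the scaffold gene SYMPK was highest at 0.37.

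Termination and premature-termination genes had a median change of 0.261, and 9 of 13 were above 0 (69.2%, against 50.8% of all genes). A change of 0.5 or more was found for 2 (15.4%, against 10.9%) and one of -0.5 or less for 1 (7.69%, against 9.91%), shares near those of all genes. ZC3H4, which restricts unproductive transcripts, was at 0.69 with siPCF11 and -0.13 with siScram in the authors' deposited tables, a change of 0.82. Its partner WDR82 was nearest the median at 0.26. RPRD1B, which binds the polymerase tail, was at 0.76 with siPCF11 and 0.05 with siScram in the authors' deposited tables, a change of 0.71. The anti-terminators SCAF4 and SCAF8 differed, at 0.34 and -0.46. CDC5L was lowest at -0.58. After centring on gene density the list's median was 0.131.

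Integrator, which cleaves nascent transcripts near promoters, had 8 of 11 genes above 0 (72.7%, against 50.8% of all genes) and a median change of 0.107, although its median ratio was -0.033 with siPCF11 and 0.109 with siScram, since the medians fall on different genes. NABP2 was highest with a change of 0.79 and INTS15 followed at 0.63, while INTS13 and INTS12 were lowest at -0.56 and -0.60. INTS5 was nearest the median at 0.11. NABP2 was at 0.81 with siPCF11 and 0.02 with siScram in the authors' deposited tables, and the authors' deposited tables give INTS12 -0.23 with siPCF11 and 0.37 with siScram.

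The list with the lowest median change was the nuclear exosome, which degrades prematurely ended transcripts. It was -0.249 (middle 50% -0.41 to -0.083), and 17 of 20 genes were below 0, against 49.2% of all genes. The median ratio was -0.015 with siPCF11 and 0.150 with siScram. Centred on gene density, the median was -0.247. The core subunit gene EXOSC1 had -0.54 with siPCF11 and 0.51 with siScram in the authors' deposited tables, a change of -1.05. EXOSC3 and the exosome cofactor MPHOSPH6 had changes of -0.61 and -0.51, and the cofactor ZCCHC7 was nearest the median at -0.27. EXOSC10, the second nuclear nuclease, was highest, at 0.79 with siPCF11 and 0.18 with siScram in the authors' deposited tables, a change of 0.61. EXOSC8 and EXOSC2 were also above 0, with changes of 0.33 and 0.04. Only 3 genes (15%, against 9.91% of all genes) had a change of -0.5 or less, so the low median comes from many moderate values.

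In the m6A and m6Am list 9 of 16 genes were above 0, near the 50.8% of all genes, and the median change was 0.021, with a mean of -0.060 and a median of -0.034 without chromosomes 11, 13, 20, 21 and X. WTAP, which holds the m6A writer together, was lowest, at -0.18 with siPCF11 and 0.72 with siScram in the authors' deposited tables, a change of -0.90. FTO, the demethylase that acts on both m6A and m6Am, was at -0.37 with siPCF11 and 0.41 with siScram in the authors' deposited tables, a change of -0.78. The nuclear m6A reader YTHDC1 was highest at 0.49. The methyltransferase gene METTL3 had 0.05 and its partner METTL14 had -0.36. The cytoplasmic reader YTHDF1, on chromosome 20, had a change of 0.42.

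The cap list held opposite extremes. NCBP3, an alternative cap-binding protein, was at 0.79 with siPCF11 and -0.10 with siScram in the authors' deposited tables, a change of 0.90. RNMT, the cap guanine methyltransferase, was at -0.46 with siPCF11 and 0.41 with siScram in the authors' deposited tables, a change of -0.87. CMTR1, which methylates the ribose of the first base, had 0.52, the decapping enzyme gene DCP2 had -0.63, and the cap-binding NCBP1 was nearest the list median of -0.123. Of the 11 genes 7 were below 0, against 49.2% of all genes.

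RNA polymerase II and elongation genes had a median change of -0.041, with 19 of 36 below 0, near the 49.2% of all genes. POLR2I was highest at 0.64, and the cyclin gene CCNK, whose product activates CDK12 and CDK13, was lowest at -0.87. IWS1 was nearest the median at -0.04, and POLR2B, for the second largest subunit, had -0.58. After centring on gene density 25 of 36 were below 0 and the median was -0.111.

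Splicing regulators were mostly below 0. Of 31 SR protein and hnRNP genes 23 were below 0, against 49.2% of all genes, with a median change of -0.135 (middle 50% -0.33 to 0.0025), but only SRSF1 passed -0.5, at -0.70 with siPCF11 and 0.08 with siScram in the authors' deposited tables, a change of -0.78. HNRNPF was nearest the median at -0.13 and the polypyrimidine tract binder PTBP1 highest at 0.31. U1 snRNP and Sm core genes had a median of -0.012. Among them SNRPA, an RNA-binding subunit of the U1 snRNP, was highest at 0.71, SNRPG lowest at -0.61, LUC7L3 nearest the median at -0.02, and SNRNP70, a further U1 subunit, had -0.53.

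Of 21 p53 target genes 5 had a change of 0.5 or more, 23.8% against 10.9% of all genes. Another 2 had a change of -0.5 or less (9.52%, near the 9.91% of all genes). The list's median change was 0.079. The BH3-only apoptosis gene BBC3 was at 1.17 with siPCF11 and 0.20 with siScram in the authors' deposited tables, a change of 0.97. PHLDA3, an inhibitor of AKT, was at 2.32 with siPCF11 and 1.40 with siScram in the authors' deposited tables, a change of 0.92. The cell cycle inhibitor gene CDKN1A was at 0.53 with siPCF11 and -0.36 with siScram in the authors' deposited tables, a change of 0.89. RRM2B and SESN2 had 0.69 and 0.64. The phosphatase gene PPM1D and the kinase gene PLK2 were lowest at -0.62 and -0.61. AEN, near the median, had 0.08, and MDM2, the ubiquitin ligase of p53, had 0.16, so the targets did not move as 1 group.

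Mitotic genes had a median change of -0.154 (middle 50% -0.45 to 0.11), with 20 of 32 below 0 (against 49.2% of all genes), 5 at -0.5 or less (15.6%, against 9.91%) and 2 at 0.5 or more (6.25%, against 10.9%). The spindle checkpoint kinase gene BUB1B was lowest, at -0.61 with siPCF11 and 0.33 with siScram in the authors' deposited tables, a change of -0.94. CCNB2, ECT2, KIF11 and SMC4 had -0.69, -0.64, -0.56 and -0.55. KIF20A was nearest the median at -0.18, and CENPA, the centromeric histone, was highest at 0.64, followed by the survivin gene BIRC5 at 0.56. DNA replication genes had a median of -0.043, with 0 of 38 at 0.5 or more (against 10.9% of all genes) and 5 at -0.5 or less, 13.2%, which is near the 9.91% of all genes. The 5 were the origin recognition genes ORC1, ORC5 and ORC6 at -0.84, -0.80 and -0.77, the clamp loader gene RFC1 at -0.60 and the helicase gene MCM3 at -0.60. MCM4 was nearest the median at -0.04 and the ligase gene LIG1 highest at 0.44. Repair genes with both ratios had a median of -0.114, from BARD1, the partner of BRCA1, at -0.80, past FANCI at -0.11, to a highest change of 0.48.

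The ATF4 and unfolded protein response list was spread to either side of a median of -0.0042 (0.022 after density centring), with 5 of 27 genes at 0.5 or more (18.5%, against 10.9% of all genes) and 1 at -0.5 or less (3.7%, against 9.91%). CHAC1, which degrades glutathione, was at -0.33 with siPCF11 and -1.18 with siScram in the authors' deposited tables, a change of 0.85. ATF5 had 0.83, SDF2L1 had 0.73 and PHGDH, which starts serine synthesis, had 0.54. DDIT4, which inhibits mTORC1, was nearest the median, and the chaperone gene DNAJB9 was lowest at -1.38 with siPCF11 and -0.63 with siScram in the authors' deposited tables, a change of -0.75. Of 21 immediate early genes FOSB was highest, at 1.08 with siPCF11 and -0.12 with siScram in the authors' deposited tables, a change of 1.21. EGR1, nearest their median of 0.064, had 0.06, MYC had -0.61, and CCN2 was lowest at -0.63. Cytosolic chaperones had a median of -0.093, or 0.015 without chromosomes 11, 13, 20, 21 and X, from CCT7 at 0.48, past CCT2 at -0.09, to TCP1 at -0.61; the 3 encode subunits of the same chaperonin.

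Axon guidance genes had a median change of 0.175, with 14 of 20 above 0 (70%, against 50.8% of all genes), 4 at 0.5 or more (20%, against 10.9%) and 0 at -0.5 or less (against 9.91%). Their median ratio was -0.066 with siPCF11 and -0.327 with siScram. SEMA6A, a transmembrane semaphorin, was at -0.10 with siPCF11 and -0.94 with siScram in the authors' deposited tables, a change of 0.84. The Eph receptor genes EPHB3 and EPHB2 had 0.73 and 0.64, and the semaphorin receptor gene PLXNA1 had 0.61. EFNA1, an ephrin ligand, was near the median at 0.13, and EPHA2 was lowest at -0.36. NTN1, the guidance cue netrin 1, was low under both siRNAs, at -0.91 with siPCF11 and -0.97 with siScram in the authors' deposited tables.

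TGF-beta and BMP genes had 18 of 24 below 0 (against 49.2% of all genes) and a median change of -0.116. ID4, a target that inhibits bHLH factors, was at -1.42 with siPCF11 and -0.46 with siScram in the authors' deposited tables, a change of -0.95. The signal transducer SMAD2 had -0.58, the co-receptor gene TGFBR3 was nearest the median at -0.12, and SMAD6, an inhibitory SMAD, was highest at 0.50. Wnt and Notch genes had a median of -0.088, with 4 of 31 at 0.5 or more (12.9%, near the 10.9% of all genes) and 6 at -0.5 or less (19.4%, against 9.91%). The ligands differed: WNT5B was at 1.03 with siPCF11 and -0.24 with siScram, but WNT5A was at 0.09 with siPCF11 and 0.85 with siScram in the authors' deposited tables. The co-receptor gene LRP6 was lowest at -0.84, beta-catenin, CTNNB1, had -0.70, and the Notch ligand DLL3 was nearest the median at -0.09. HOX genes had a median of -0.061, which was 7.33e-05 after window centring, with HOXB7 highest at 1.10 and HOXD4 nearest the median at -0.06.

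In metabolism, cholesterol synthesis genes had a median change of 0.181, with 11 of 19 above 0 (57.9%, against 50.8% of all genes). MVD was highest, at 0.52 with siPCF11 and -0.74 with siScram in the authors' deposited tables. HMGCS1, of an earlier step in the same pathway, was lowest, at -0.99 with siPCF11 and -0.06 with siScram in the authors' deposited tables, a change of -0.93. SREBF2, the pathway's transcription factor, and MVK both had 0.63. After centring on gene density the median was 0.055. Glycolysis genes had a median of 0.076 and 11 of 17 above 0 (64.7%, against 50.8% of all genes). GAPDH, at 0.72, PFKP and TPI1, at 0.70 each, were highest, LDHA was nearest the median at 0.08 and HK2 lowest at -0.51.

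Medians of large housekeeping families stayed near 0, although many single members did not. At 0.5 or more were 16.2% of 74 respiratory chain and 15.7% of 70 mitochondrial ribosomal protein genes, against 10.9% of all genes. For 80 cytosolic ribosomal protein and 40 proteasome genes these shares were 7.5% and 5%. At -0.5 or less were 4.05%, 10%, 3.75% and 7.5% in the same order, against 9.91% of all genes. The 80 cytosolic ribosomal protein genes had a median change of 0.029, or -0.010 after window centring, and median ratios of -0.185 with siPCF11 and -0.311 with siScram. They ran from RPL35 at 0.94, past RPSA at 0.02, to RPS23 at -0.58, and reads shared with pseudogenes make single values uncertain. Mitochondrial ribosomal protein genes had a median of 0.072, from MRPL41 at 0.86, past MRPL33 at 0.07, to MRPS10 at -1.03, and one of -0.0055 after centring on gene density. Respiratory chain genes had a median of 0.019. UQCRC1, of complex III, was highest at -0.20 with siPCF11 and -1.24 with siScram in the authors' deposited tables, a change of 1.05. NDUFA2 was nearest the median at 0.01 and SDHA lowest at -0.76. Proteasome genes had a median of -0.010, from PSMD1 at 0.57, past PSMG4 at -0.02, to PSMD14, a deubiquitinase of the lid, at -1.07.

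Histone genes had a median of 0.092, but -0.042 after window and -0.043 after density centring, from H4C3 at 1.06, past H1-2 at 0.09, to H4C11 at -0.58, and copies of histone genes share reads. Zinc finger genes named ZNF had a median change of 0.046 (n = 223), from ZNF205 at 1.14, past ZNF462 at 0.05, to ZNF33B at -1.31. Their median was 0.0021 after centring on gene density and -0.065 after centring on the other genes of the 10 Mb window. Solute carriers had a median of 0.095 (n = 103), from SLC25A26 at 0.86, past SLC25A28 at 0.09, to SLC25A44 at -0.97.

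**Figure D5:**
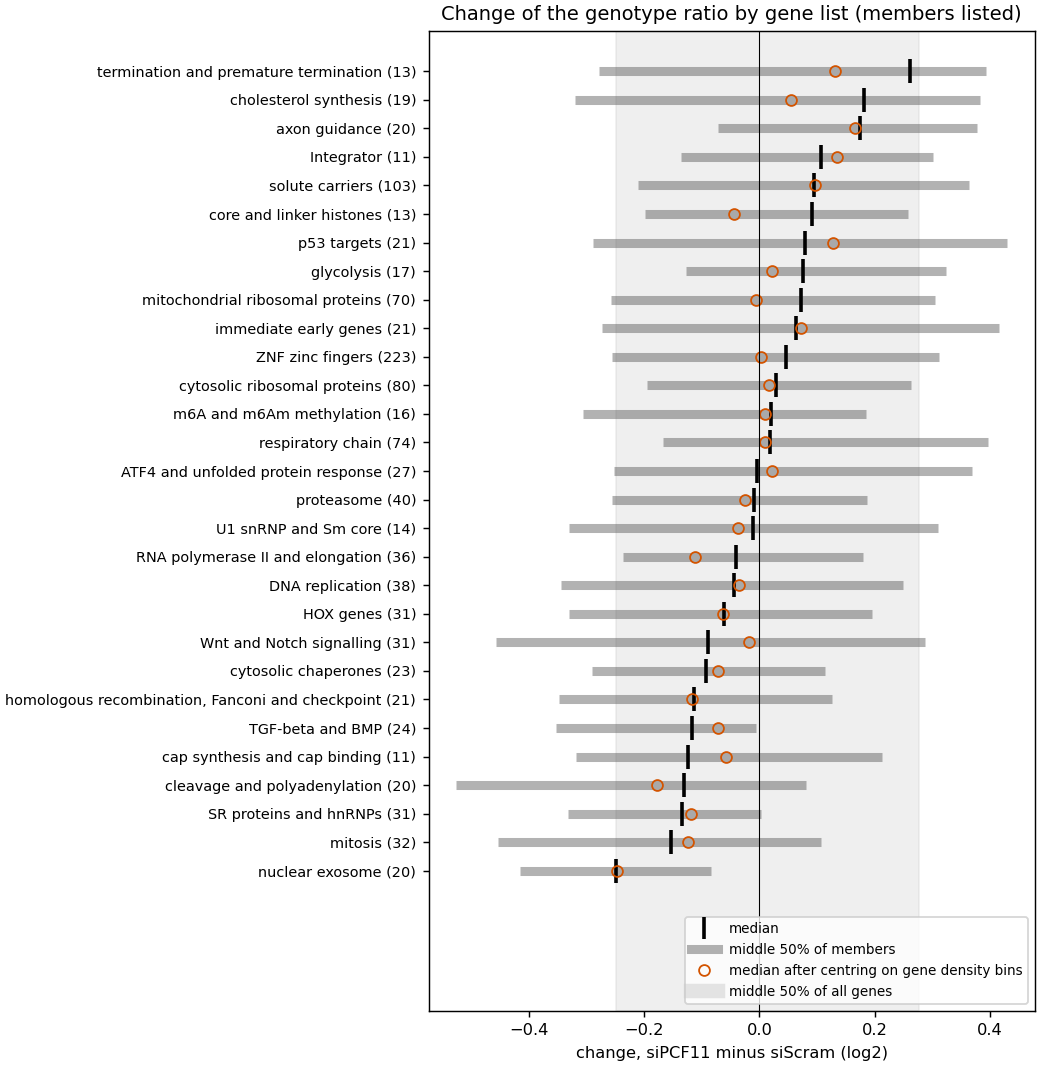
Median change (black ticks, log2) and middle 50% of members (grey bars) of 29 gene lists, with the number of members in parentheses; open circles are medians after centring each gene on its gene density bin and the pale band is the middle 50% of all genes. The nuclear exosome list is lowest at -0.249 and termination genes highest at 0.261.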

How the data were processed

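Each gene's log2 ratio (WT divided by Pcif1-KO) was computed by the authors and deposited in 2 tables, for long and short genes. Direction and scale are those of the tables' titles, per the file headers. Per the submitters' processing notes, DESeq2 1.30.1, HTSeq 2.0.1, STAR 2.7.10a, cutadapt 3.7 and bcl2fastq 2.20 were among the tools and hg38 was the build; no role is stated for any of them. Not given in the sources used here are: how libraries were scaled, whether ratios were shrunk, which genes were listed, whether only labelled reads were counted, whether counting used strand, and how the length and m6Am classes were set. Without counts in these tables, depth is unknown, low values could not be filtered, and overlapping or antisense genes and near-identical copies are uncertain. A 3′ end ratio can also move with the cleavage site, which was not tested.

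Groups came from the sample titles, with 1 library per genotype and siRNA. The change per gene is the siPCF11 ratio minus the siScram ratio, summarised by medians and by counts past 0.5 and 1. No p-value, standard error or interval was computed. Python 3.11.15, pandas 2.3.3, numpy 2.4.6 and scipy 1.17.1 were used, and the calculation was tested on simulated data. Symbols were found for 8792 of the 8801 gene IDs, and RefSeq spans on GRCh38 for 8725 (99.1%). Promoters, of 250 bases before to 50 after a start, matched 7295 genes (82.9%), and 5203 of these had 1 start. Sequences are RefSeq's, on GRCh38.p14.

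The genes compared, the 30 gene lists and all tests were chosen with earlier results of these data known. The rule for named genes takes PCIF1, PCF11 and DIS3 where listed, the 6 highest and 6 lowest changes of each length class, the highest, lowest and middle gene of each list with at least 5 genes, cleavage and polyadenylation genes past 0.5, the genes on either side of a change of 1 and -1, and the highest and lowest gene of each length class among genes listed with 1 siRNA. A few genes that the rule names are not reported here. Further members of lists and windows were chosen after their values were seen. Alternatives centred each change on its chromosome, its 10 Mb window or all genes, left out chromosomes 11, 13, 20, 21 and X or genes with a ratio past 1, or took means. Centring on bins of gene density and of promoter GC content was added after the tables had been seen.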

Additional observations from a re-analysis of the deposited data

Results flagged for a closer look

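For 15 genes the deposited ratio lay past 0.5 in opposite directions with the siRNAs, 9 higher in WT with siPCF11 and 6 lower. They were chosen after their values were seen, each rests on 1 library per group, and the difference between the siRNAs was not tested. Higher in WT with siPCF11 and lower with siScram were AKAP8L (change 1.93), MVD (1.25), C2orf68 (1.23), the mitochondrial fission gene MIEF2 (1.16), the CREB co-activator CRTC3 (1.14), MCRIP2 (1.13), the spliceosome disassembly factor TFIP11 (1.09), the golgin GOLGA2 (1.06) and the RNA polymerase I subunit POLR1E (1.04). In the authors' deposited tables C2orf68 was at 0.54 with siPCF11 and -0.69 with siScram, MIEF2 was at 0.63 with siPCF11 and -0.53 with siScram, and CRTC3 was at 0.57 with siPCF11 and -0.57 with siScram. Lower in WT with siPCF11 and higher with siScram were CLTC (change -1.35), ZNF33B (-1.31), CHUK (-1.31), BCAS2 (-1.27), the kinase gene STK17B (-1.12) and EXOSC1 (-1.05). STK17B was at -0.60 with siPCF11 and 0.52 with siScram in the authors' deposited tables, and BCAS2 was at -0.59 with siPCF11 and 0.68 with siScram in the authors' deposited tables. Of the 15 genes CLTC, CHUK, BCAS2, POLR1E, MCRIP2, MIEF2, C2orf68, MVD and AKAP8L are m6Am genes, against 52.8% of all genes with both ratios.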

How the results depend on the processing

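Counts of genes past 0.5 and 1 stayed within 1.5 times under the 6 alternatives that give such counts, but the class medians are small and depend on regional shifts. Centred on the other genes of their 10 Mb window, the median change was -0.013 for all genes, -0.010 for short genes, -0.0052 for short m6Am genes and -0.017 for short non-m6Am genes, and long minus short was -0.0061. Centred on bins of gene density, the medians were 0.0074 for long, 0.0033 for long non-m6Am, -0.0070 for short, -0.0036 for short m6Am and -0.021 for short non-m6Am genes, and long minus short was 0.014. The cause of these shifts was not tested. Of 29 lists, window centring turned the sign of 4 medians, density centring 3, and promoter GC centring, means and leaving out the 5 chromosomes 2 each, chromosome centring 1. Of 152 named genes with both ratios, window centring turned the sign of 11, and 8 others came to lie within 0.5 of 0. Centring also removes any effect that neighbours share. No paired analysis was possible because each group has 1 library, and for the same reason no replicate could be left out. Depth is unknown, so the counting error behind a ratio cannot be given.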

Other observations

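Genes picked by the difference of their ratios have ratios of opposite sign more often through that choice alone. The following counts are therefore descriptions only. Of the 825 genes with a change of 0.5 or more, 594 had ratios of opposite sign under the siRNAs, and in 333 the siScram ratio was the one farther from 0. Of the 752 genes with a change of -0.5 or less, 567 had ratios of opposite sign, and in 311 the siScram ratio was farther from 0. Over all 7591 genes, 2906 had ratios of opposite sign, and in 3453 the siScram ratio was farther from 0.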
